A study of Mus musculus with 6 samples.

Results

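The 10 triglyceride assembly enzymes described here were Mogat1, Mogat2, Dgat1, Dgat2, Gpam, Agpat2, Agpat3, Lpin1, Lpin2 and Lpin3, picked from the 55385 genes of the deposited mouse liver counts table. They were chosen by name as enzymes of the glycerol phosphate and monoacylglycerol routes, by someone who knew how earlier results of the sham and VSG livers compared, so their values in that comparison, the calls at an adjusted p under 0.05 included, are a description, and no p-value is printed for a member. Liver RNA came from C57BL/6 male mice that were 6 to 8 weeks old when a high-fat diet (HFD) began. All mice ate the HFD for 10 weeks, received either a sham operation (3 libraries, replicates 1 to 3) or a vertical sleeve gastrectomy (VSG, removal of most of the stomach; 3 libraries, replicates 4 to 6), and stayed on the HFD for 12 more weeks. Both groups were therefore diet-fed and operated on, and no lean or unoperated liver was analysed here. The comparison asks which liver transcripts differ after VSG in mice that keep eating the HFD.

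Triglyceride is built by adding fatty acids to a glycerol backbone. In the glycerol phosphate route, a glycerol-3-phosphate acyltransferase such as Gpam (the mitochondrial enzyme) makes lysophosphatidate, an acylglycerol-phosphate acyltransferase such as Agpat2 or Agpat3 makes phosphatidate, and a lipin (Lpin1, Lpin2, Lpin3) removes the phosphate to leave diacylglycerol. In the monoacylglycerol route, best known from the intestine, Mogat1 or Mogat2 acylates monoacylglycerol to diacylglycerol directly. Both routes end with Dgat1 or Dgat2, unrelated proteins that add the last fatty acid, and Dgat2 belongs to the protein family of the Mogat enzymes. The lipins also act in the nucleus as partners of transcription factors. In obese mice the liver stores triglyceride as droplets and exports it in lipoproteins.

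The members form families whose coding sequences can be told apart by sequencing reads. The stretches below hold the codons of the catalytic motifs, in capitals, of the Mogat and Dgat2 family (His-Pro-His-Gly) and of the lipins (Asp-X-Asp-X-Thr, with X any residue), read 5′ to 3′ from GENCODE M21 transcripts (GRCm38). They are shown because relatives this close are where counts could be split between genes.
Mogat1 (chr1:78523607-78523654, plus strand): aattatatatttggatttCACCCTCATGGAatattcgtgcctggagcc
Mogat2 (chr7:99223625-99223672, minus strand): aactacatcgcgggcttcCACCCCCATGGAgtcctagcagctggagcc
Dgat2 (chr7:99158957-99159004, minus strand): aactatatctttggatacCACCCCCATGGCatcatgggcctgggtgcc
Lpin1 (chr12:16546798-16547526, minus strand): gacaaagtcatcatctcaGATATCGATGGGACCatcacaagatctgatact
Lpin2 (chr17:71243396-71243934, plus strand): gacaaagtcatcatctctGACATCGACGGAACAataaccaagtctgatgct
Lpin3 (chr2:160903711-160903933, plus strand): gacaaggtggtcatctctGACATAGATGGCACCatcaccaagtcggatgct
The lipin stretches cross an exon junction, so their coordinates include an intron. Mogat1 and Mogat2 shared 32 of the 48 bases, Mogat1 and Dgat2 shared 34, and Mogat2 and Dgat2 shared 32. Among the lipins, 39 to 42 of the 51 bases were shared by each pair. Over whole transcripts, no run of 50 bases of any of the 10 members occurred on the same strand in a transcript of another gene. On the opposite strand, 9.95% of the 50-base runs of Mogat1 lay in BC035947, a gene that overlaps Mogat1 exons by 200 bases and had 11, 15 and 17 counts in the sham libraries and 0 counts in each VSG library. Agpat2 (0.676% of its runs, with Egfl7) and Mogat2 (0.336%, with Gm45012) had smaller overlaps of the same kind. The libraries were strand-specific, but whether the counting used strand is not given in the sources used here, so it is not known whether reads of such partners were separated.

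The genes lie on separate chromosomes except for a pair on chromosome 7 and a pair on chromosome 2. Dgat2 (GRCm38 chr7:99153658-99182719, minus strand) and Mogat2 (chr7:99219084-99238619, minus strand) are neighbours, 36364 bases apart with 0 annotated genes between them. Agpat2 (chr2:26593057-26604417, minus strand) and Lpin3 (chr2:160880670-160906002, plus strand) share chromosome 2 without being neighbours. Mogat1 lies at chr1:78510991-78538173 on the plus strand, Dgat1 at chr15:76502015-76511953 on the minus strand, Gpam at chr19:55067268-55127238 on the minus strand, Agpat3 at chr10:78269178-78352489 on the minus strand and Lpin2 at chr17:71182560-71249817 on the plus strand. The table gives Lpin1 a longer gene model (chr12:16535669-16646966, minus strand, 9930 exon bases) than GENCODE M21, where it ends at 16610966 and has 9665 exon bases.

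All 10 members passed the filter on low counts, and 4 of them were lower after VSG at an adjusted p under 0.05: Mogat1, Gpam, Lpin2 and Lpin3. None was called higher, by edgeR or by DESeq2. Across all 14454 genes tested, 7.87% were called lower and 6.79% higher in the same edgeR fit (1137 and 981 genes; 1512 and 486 when scaled by total counts alone). The members were chosen with this comparison known, so nothing is read from their count. Every VSG library lay below every sham library for 6 members, the 4 called ones plus Agpat3 and Lpin1, and none lay above. Such separation held for 19.8% of all genes tested in the downward direction and for 19.8% in the upward direction. The groups overlapped for the other 4, Agpat2, Mogat2, Dgat1 and Dgat2. The log2 fold change (VSG over sham) was negative for 9 of 10, all but Mogat2, and its median was -0.67, beside 0.03 over all genes tested. In bulk liver, fewer cells of a type and less RNA per cell cannot be told apart.

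**Figure D1:**
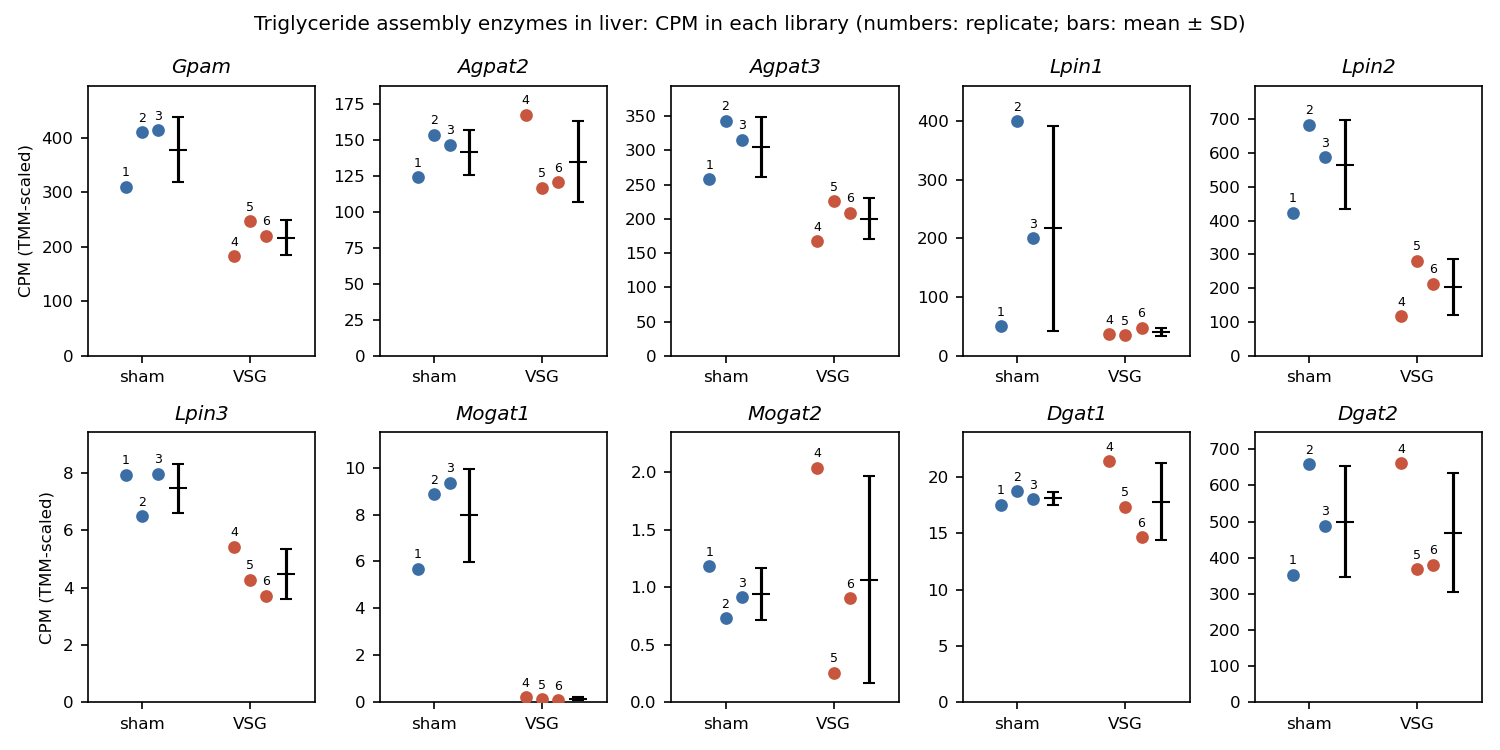
Counts scaled to library size (CPM, linear axes from 0) of the 10 enzymes in the 3 sham (blue) and 3 VSG (red) libraries, with the replicate number at each point and black bars for the mean ± SD. The groups are apart for Gpam, Agpat3, Lpin1, Lpin2, Lpin3 and Mogat1 and overlap for Agpat2, Mogat2, Dgat1 and Dgat2, and sham replicate 1 comes close to the VSG libraries for Lpin1.

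Gpam, the mitochondrial enzyme that starts the glycerol phosphate route, was called lower after VSG, though not in 4 of the 6 fits that each left out 1 library. It stood at 311, 411 and 415 CPM (counts scaled to library size with TMM factors) in sham replicates 1 to 3. It stood at 183, 247 and 221 CPM in VSG replicates 4 to 6. The highest VSG library was below the lowest sham library, with means of 379 ± 59.0 and 217 ± 32.2 CPM (SD, n = 3 each). The log2 fold change was -0.80 (SE 0.177), a 1.74-fold lower level. Other enzymes of the same step had edgeR adjusted p-values just above the threshold. Gpat4, an enzyme of the endoplasmic reticulum, had a log2 fold change of -0.63 (SE 0.190, edgeR adjusted p = 0.0682). Summed over Gpam, Gpat2, Gpat3 and Gpat4, the step had 97.0 ± 13.8 FPKM (CPM divided by exon length in kilobases) in sham and 59.1 ± 7.86 FPKM in VSG libraries, without overlap. Gpam made up 58.6% ± 3.73 of that sum in sham and 55% ± 2.61 in VSG libraries (SD, n = 3), with overlapping groups. Its part of the step thus moved by less than 1 SD of the sham libraries while the sum was lower.

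Agpat2 and Agpat3, which place the second fatty acid, differed from each other in these livers. Agpat2, the enzyme whose loss causes lipodystrophy, gave 124, 154 and 146 CPM in sham libraries. It gave 167, 117 and 120 CPM in VSG libraries, so the groups overlapped, with VSG replicate 4 above all others. Its log2 fold change was -0.07 (SE 0.173). Agpat3 gave 258, 343 and 316 CPM in sham libraries and 167, 226 and 209 CPM in VSG libraries. These groups did not overlap, but the fit did not call the gene (log2 fold change -0.61, SE 0.170). Per length, Agpat2 led the step and Agpat3 came next. The share of Agpat2 in the summed FPKM of Agpat1 to Agpat5 was 59.2% ± 0.357 in sham and 66.1% ± 6.59 in VSG libraries, and that of Agpat3 was 34.9% ± 1.05 and 27.5% ± 6.5, both without overlap. VSG replicate 4 was the farthest from the sham libraries in both shares, at 73.6% for Agpat2 and 20.1% for Agpat3. The summed level of the step was 112 ± 12.9 FPKM in sham and 95.1 ± 10.2 FPKM in VSG libraries, with overlap. Agpat1, a relative of the same activity, had a log2 fold change of -0.11 (SE 0.133, edgeR adjusted p = 0.573).

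Lpin2 and Lpin3, phosphatidate phosphatases, were called lower after VSG, and Lpin1 was lower in every VSG library without being called. Of the 6 fits that each left out 1 library, 4 did not call Lpin2 and 5 did not call Lpin3, which was also not called when scaled by total counts alone. Lpin2, the most abundant lipin of these livers per length, stood at 423, 683 and 587 CPM in sham libraries. It stood at 117, 281 and 214 CPM in VSG libraries. The lowest sham library was 1.51 times the highest VSG library, and the log2 fold change was -1.47 (SE 0.343), a 2.77-fold lower level.

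Lpin3, a scarce lipin here, gave 7.94, 6.49 and 7.98 CPM in sham libraries and 5.43, 4.28 and 3.72 CPM in VSG libraries. The groups did not overlap, and the log2 fold change was -0.74 (SE 0.191), or -0.45 by limma on log2(FPKM + 1). Lpin1, the lipin known from the fatty liver dystrophy mouse, had a wide spread among sham libraries. Its sham libraries held 51.0, 400 and 201 CPM, a 7.83-fold range. Its VSG libraries held 37.2, 35.5 and 47.9 CPM, a 1.35-fold range. Sham replicate 1 was only 1.07 times the highest VSG library, and the log2 fold change of -2.43 carried an SE of 0.662. Without sham replicate 1 the fit called Lpin1 (log2 fold change -2.91) but neither Lpin2 nor Lpin3, and without sham replicate 2 it was -1.65 and not called. DESeq2 on all 6 libraries called 6 members, the 4 above with Agpat3 and Lpin1, in a fit that also called more genes lower overall (12.3% of those tested, beside 7.87% by edgeR).

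Together the lipins had 70.0 ± 28 FPKM in sham and 21.9 ± 6.57 FPKM in VSG libraries, without overlap. Lpin2 held 69.3% ± 12.8 of this sum in sham and 74.2% ± 9.14 in VSG libraries. Lpin1 held 27.4% ± 14.5 and 19.6% ± 6.29, and Lpin3 held 3.33% ± 1.68 and 6.14% ± 3.29. All of these shares overlapped between the groups. By mean level per length the order was Lpin2 (46.2 FPKM), Lpin1 (21.9) and Lpin3 (2.02) in sham and again Lpin2 (16.7), Lpin1 (4.05) and Lpin3 (1.21) in VSG libraries. In single libraries Lpin1 ranged from 12.3% (sham replicate 1) to 41.1% (sham replicate 2) of the lipin sum.

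Mogat1, an acyltransferase of the monoacylglycerol route, had the greatest log2 fold change of the members. The sham libraries held 154, 194 and 246 counts (5.69, 8.86 and 9.35 CPM). The VSG libraries held 5, 3 and 2 counts (0.226, 0.128 and 0.0954 CPM). A floor of 3 counts was set beforehand and not measured, and it equals 0.111 to 0.143 CPM in these libraries. VSG replicates 5 and 6 were at or under that floor, so their levels rest on very few reads. The lowest sham library was 25.1 times the highest VSG library. Mean levels were 7.97 ± 1.99 CPM in sham and 0.150 ± 0.0681 CPM in VSG libraries (SD, n = 3), and the log2 fold change was -5.68 (SE 0.372). This value depends on the prior count, and a prior count of 2 gave -5.10. On the log2(FPKM + 1) scale, which understates changes of scarce transcripts, limma gave -2.46. Pooled over libraries, 594 sham counts stood against 10 VSG counts, a ratio of 52.4 after scaling (95% Clopper-Pearson interval 28.3 to 110, for counting error only).

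Mogat2, its intestinal relative, was scarce in both groups, with 32, 16 and 24 sham counts (1.18, 0.731 and 0.912 CPM) and 45, 6 and 19 VSG counts (2.04, 0.257 and 0.906 CPM). Its groups overlapped, and its log2 fold change of 0.17 had an SE of 0.650. It was -0.26 by limma-voom and -0.71 without VSG replicate 4. Mogat1 made up 90.3% ± 4.59 of the summed FPKM of both genes in sham libraries and 19.9% ± 14.9 in VSG libraries, without overlap. The sum itself was 5.63 ± 1.17 FPKM in sham and 0.677 ± 0.527 FPKM in VSG libraries. The VSG libraries thus held little of either transcript, and their shares rest on 2 to 45 counts a gene. Fabp2, an intestinal fatty acid binding protein that the liver also makes, and Apoa4, an apolipoprotein of both organs, were called lower after VSG, as 2 of the 3 tested genes of an enterocyte marker list of 6. The other 4 markers were scarce in every library, with Vil1 at 0.137 to 0.453 CPM, Alpi at 0.480 CPM or less, Sis at 0.226 CPM or less and Lct at 0.0954 CPM or less.

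Dgat1 and Dgat2, which complete the molecule, had overlapping groups. Dgat2, the main hepatic enzyme, gave 353, 658 and 488 CPM in sham libraries. It gave 661, 368 and 380 CPM in VSG libraries, where replicate 4 exceeded every sham library. The log2 fold change was -0.09 (SE 0.315), with a standard error wider than that of Gpam. Dgat1 was steadier, with 17.54, 18.73 and 18.01 CPM in sham and 21.4, 17.4 and 14.6 CPM in VSG libraries, and a log2 fold change of -0.02 (SE 0.150). Dgat2 held 96.3% ± 0.999 of the summed FPKM of both genes in sham and 96.2% ± 0.691 in VSG libraries. The sum was 168 ± 49.8 FPKM in sham and 158 ± 54.7 FPKM in VSG libraries.

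**Figure D2:**
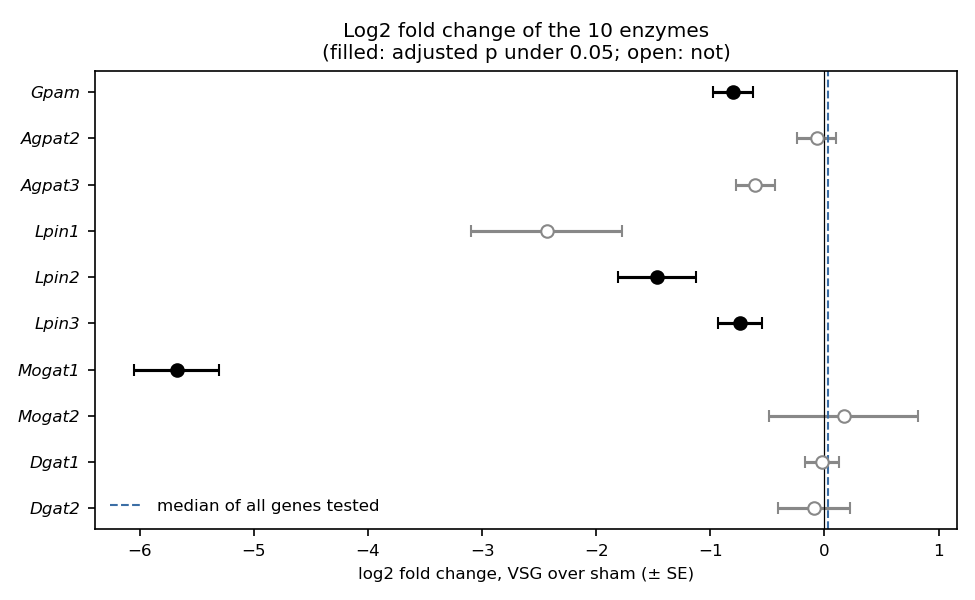
Log2 fold change (VSG over sham) of the 10 enzymes from the edgeR fit on all 6 libraries. Bars are the standard error derived from the test, the absolute log2 fold change divided by the square root of F. Filled points are the 4 enzymes with an adjusted p under 0.05, open points the other 6, and the dashed line is the median of all genes tested (0.03). Mogat1 lies farthest from 0, at -5.68.

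Per length, the order of the sham means ran from Dgat2 (162 FPKM) through Agpat2 (66.4), Gpam (56.8), Lpin2 (46.2), Agpat3 (39.2), Lpin1 (21.9), Dgat1 (5.92), Mogat1 (5.11) and Lpin3 (2.02) to Mogat2 (0.513 FPKM). Several neighbours were within their spread. Agpat2 and Gpam had sham ranges of 58.2 to 72.1 and 46.6 to 62.2 FPKM, and those of Dgat1 and Mogat1 were 5.74 to 6.13 and 3.65 to 6.00 FPKM. In VSG libraries Mogat1 took rank 10 in place of rank 8, at 0.0963 ± 0.0437 FPKM, below Mogat2 at 0.581 ± 0.491 FPKM. Dgat2 and Agpat2 kept ranks 1 and 2, at 152 ± 53.7 and 63.3 ± 13.2 FPKM.

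**Figure D3:**
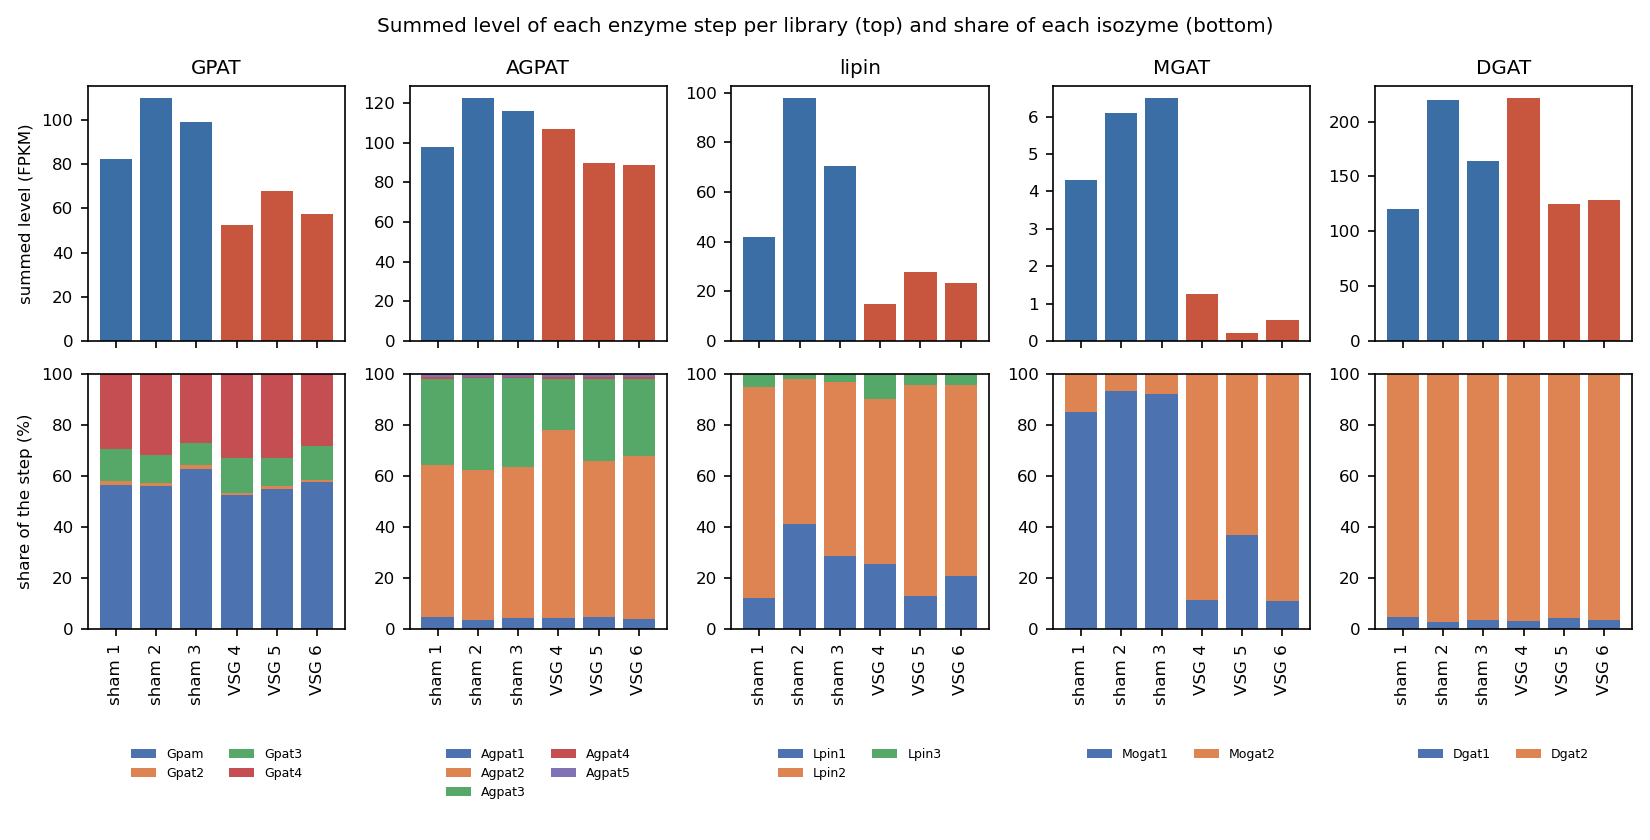
Summed level in FPKM of the enzymes of each step (top row, bars from 0, sham blue and VSG red) and percentage of that sum from each isozyme (bottom row) in each of the 6 libraries. GPAT, AGPAT, MGAT and DGAT stand for the acyltransferases of glycerol-3-phosphate, lysophosphatidate, monoacylglycerol and diacylglycerol. The GPAT, lipin and MGAT sums do not overlap between groups, the AGPAT and DGAT sums do, and Mogat1 goes from 85.0% or more of the MGAT sum in sham libraries to 37.1% or less in VSG libraries.

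Within a group, the same libraries were extreme for several members. Sham replicate 1 was the lowest sham library for 8 of 10 members, all but Mogat2 and Lpin3. Sham replicate 2 was the highest for 6 of the 10 (Dgat1, Dgat2, Agpat2, Agpat3, Lpin1, Lpin2). These orders are of scaled CPM, and a higher TMM factor lowers the CPM. The factor was 1.15 for sham replicate 1 and 0.924 for sham replicate 2. Dgat1, for example, had 475 raw counts in sham replicate 1 and 410 in sham replicate 2, the reverse of its CPM order. How often all genes showed these orders was not computed. Among VSG libraries, replicate 4 was the highest for 6 members (Mogat1, Mogat2, Dgat1, Dgat2, Agpat2, Lpin3) and the lowest for Gpam, Agpat3 and Lpin2. Replicate 4 also had the highest neutrophil marker sum. The summed level of 8 neutrophil markers was 1800, 146 and 828 CPM in VSG replicates 4 to 6. It was 2.56 to 14.1 CPM in sham libraries, and 8 of 8 were called higher after VSG. Of 6 macrophage markers 2 were called higher, Marco and Clec4f, and the list summed to 435 to 1360 CPM in VSG and 186 to 374 CPM in sham libraries. Without Marco (101 to 688 CPM in VSG, 3.91 to 26.7 CPM in sham libraries), omitted after its values were seen, the sums overlapped, at 334 to 674 and 180 to 347 CPM. Of the markers not called, Csf1r (log2 fold change 1.07) did not overlap between the groups. Adgre1 (0.68), Cd68 (0.13) and Trem2 (-1.40) overlapped. At an unadjusted edgeR p under 0.05, 3 macrophage markers were higher and 0 lower, beside 16.9% and 17% of all genes. DESeq2 called 3 of them higher and 0 lower. Of 6 stellate cell and fibroblast markers 1 was called lower, and 5 by DESeq2 (280 to 550 CPM summed, beside 589 to 890 CPM). None of 6 hepatocyte markers was called by edgeR at an adjusted p under 0.05 (1 lower at an unadjusted p under 0.05, and 1 lower by DESeq2), and their sums of 44700 to 70200 CPM in VSG and 61000 to 97300 CPM in sham libraries were the highest of the marker lists. Adipocyte markers summed to 3.06 CPM or less in every library, with Lep at 0 throughout. The part of these other cell types in the members' values was not tested. Without VSG replicate 4, 3 members were called lower (Mogat1, Lpin2, Lpin3) and the log2 fold change of Gpam was -0.69.

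**Figure D4:**
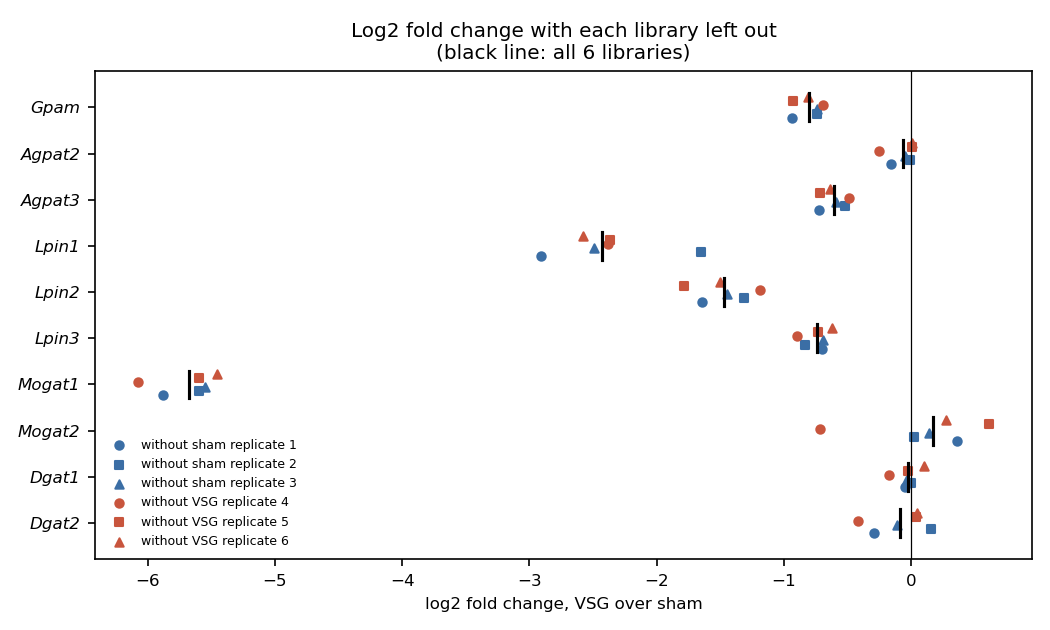
Log2 fold change (VSG over sham) of each enzyme with each of the 6 libraries left out in turn (blue, a sham library left out; red, a VSG library left out) and with all 6 libraries (black line). Gpam, Agpat3, Mogat1 and the 3 lipins stay below 0 in each of these fits, while Agpat2, Mogat2, Dgat1 and Dgat2 lie on both sides of 0.

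Calls depended on single libraries, and so did the fold changes of some members. The log2 fold change of Gpam ran from -0.93 to -0.69, that of Lpin2 from -1.79 to -1.19, that of Lpin3 from -0.90 to -0.62, that of Agpat3 from -0.72 to -0.49 and that of Mogat1 from -6.08 to -5.46. Lpin1 moved from -2.91 to -1.65, and Mogat2 (-0.71 to 0.61), Dgat2 (-0.42 to 0.16), Dgat1 (-0.18 to 0.10) and Agpat2 (-0.25 to 0.01) changed sign. Mogat1 was called in each of the 6 fits. Gpam kept its call without sham replicate 1 or VSG replicate 5, Lpin2 without VSG replicate 4 or 5, and Lpin3 without VSG replicate 4 alone. Without sham replicate 1, 3 members were called (Mogat1, Gpam, Lpin1). Mogat1 was the only member called when sham replicate 2, sham replicate 3 or VSG replicate 6 was left out. Calls over all genes also dropped in those fits, to 3.31%, 0.748% and 0.812% lower, while omitting sham replicate 1 gave 5.11%, VSG replicate 4 gave 3.95% and VSG replicate 5 gave 9.59%. Without VSG replicate 5, 4 members were called (Mogat1, Gpam, Agpat3, Lpin2). With at least 10 counts required in every library, Mogat1 dropped out of the test and Gpam, Lpin2 and Lpin3 were called.

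RefSeq promoter windows of the GRCm38.p6 build (250 bases before to 50 after a start site) were found for 7 of the 10 members, Mogat1, Gpam, Agpat2, Agpat3, Lpin1, Lpin2 and Lpin3. The stretches of the 4 called members are printed, as members that moved in the same direction, without any base of an annotated exon. Capitals mark exact matches, on either strand, to the letters searched, which were AGGTCA for a nuclear receptor half-site, CACGTG for an E-box, CCAAT for a CCAAT box, TATAAA for a TATA box, and TTGCNNAA for a C/EBP element.
Mogat1 (chr1:78510810-78510990, plus strand): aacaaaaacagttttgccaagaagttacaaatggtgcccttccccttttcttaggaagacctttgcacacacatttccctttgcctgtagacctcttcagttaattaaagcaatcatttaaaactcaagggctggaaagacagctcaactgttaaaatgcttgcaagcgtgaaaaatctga
Gpam (chr19:55127239-55127438, minus strand): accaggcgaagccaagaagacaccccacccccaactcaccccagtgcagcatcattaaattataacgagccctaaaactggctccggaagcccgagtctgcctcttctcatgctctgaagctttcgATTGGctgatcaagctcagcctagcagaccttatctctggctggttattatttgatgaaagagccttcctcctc
Lpin2 (chr17:71183332-71183531, plus strand): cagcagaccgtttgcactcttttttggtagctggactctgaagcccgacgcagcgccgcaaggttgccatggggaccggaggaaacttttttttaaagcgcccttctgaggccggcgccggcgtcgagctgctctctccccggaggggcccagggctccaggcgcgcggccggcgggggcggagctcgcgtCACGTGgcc
Lpin3 (chr2:160880470-160880669, plus strand): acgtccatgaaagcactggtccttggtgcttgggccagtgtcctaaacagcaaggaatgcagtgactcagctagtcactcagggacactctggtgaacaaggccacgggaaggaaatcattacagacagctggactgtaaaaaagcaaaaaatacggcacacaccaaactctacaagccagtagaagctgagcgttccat
The Gpam stretch held a CCAAT box read on the other strand, starting 74 bases upstream of the start site, and the Lpin2 stretch held an E-box starting 9 bases upstream. The printed Mogat1 and Lpin3 stretches held none of the letters searched. Downstream of the start site, within the whole windows, Mogat1 held a CCAAT box from base 25, Lpin3 an E-box from base 23 and Gpam a C/EBP element from base 9. The windows of members not called were searched as well. Lpin1 held a nuclear receptor half-site from 74 bases upstream, Agpat3 a C/EBP element from 149 bases upstream, and Agpat2 none of the letters. Of 32851 whole promoter windows, which are longer than the printed stretches, 37.4% held a CCAAT box, 7.15% an E-box, 16.3% a nuclear receptor half-site, 13.6% a TATA box and 10.8% a C/EBP element. These matches and stretches are of the window nearest the annotated gene start. Of the further windows, the other window of Gpam held a nuclear receptor half-site from 196 bases upstream, and window 3 of Lpin2 held CCAAT boxes from 233, 165 and 57 bases upstream and a C/EBP element from 70 bases upstream. A match is a description of letters. Mogat1 and Lpin2 have annotated transcripts that begin upstream of the RefSeq start site, so the Mogat1 stretch ends 70 bases before that site.

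Of 70 other genes around the same steps, placed in 5 lists, 66 were tested, and 13 were lower and 2 higher at an edgeR adjusted p under 0.05 over all genes, beside 7.87% lower and 6.79% higher among all genes tested, the shares against which each list's counts are to be read. Their median log2 fold change was -0.27, beside 0.03 for all genes tested. The lists, like the members, were chosen with earlier results of these data known. Their calls and adjusted p-values are therefore a description too. Among 13 other isozymes (acyltransferases and phosphatases that catalyse the members' reactions), 11 were tested and none was called by edgeR at an adjusted p under 0.05, with 4 lower and 0 higher at an unadjusted p under 0.05. Over all genes tested, 17% were lower and 16.9% higher at that unadjusted threshold. Gpat2, Gpat3, Gpat4 and Awat2 did not overlap between the groups, DESeq2 called 4 lower (12.3% of all genes), 2 were called by edgeR when VSG replicate 5 was left out, and the list's median was -0.32.

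Substrate supply covered enzymes that make glycerol 3-phosphate and acyl-CoA. Of 11 genes 10 were tested, 2 were lower and none higher, with a median of -0.66. At an unadjusted edgeR p under 0.05, 5 were lower and 0 higher, beside the 17% and 16.9% of all genes. Gpd1l, a relative of glycerol-3-phosphate dehydrogenase, went from 40.2, 48.8 and 47.2 CPM in sham to 18.4, 28.6 and 17.5 CPM in VSG libraries (log2 fold change -1.08, SE 0.203, edgeR adjusted p = 0.0219). Slc27a4, a fatty acid transporter with acyl-CoA synthetase activity, was lower by -0.61 on the log2 scale (SE 0.141, edgeR adjusted p = 0.0350). Gpd1, the cytosolic glycerol-3-phosphate dehydrogenase, had a log2 fold change of -1.02 (SE 0.303, edgeR adjusted p = 0.0662), with every VSG library (151 to 348 CPM) below every sham library (434 to 575 CPM). DESeq2 called 5 of the list lower. Leaving out VSG replicate 5 gave 5 called, leaving out sham replicate 1 gave 1, and leaving out any of the other libraries gave 0.

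Competing uses of phosphatidate and diacylglycerol, which lead to phospholipids, had 21 of 21 genes tested, 2 lower and 1 higher, with a median of -0.03. Chpt1, a cholinephosphotransferase that turns diacylglycerol into phosphatidylcholine, was lower by -1.08 (SE 0.179, edgeR adjusted p = 0.0166). Pcyt1a, the regulated enzyme of the same pathway, was lower by -0.81 (SE 0.136, edgeR adjusted p = 0.0167). Dgkh, a kinase that returns diacylglycerol to phosphatidate, was higher by 0.51 (SE 0.123, edgeR adjusted p = 0.0395), from 10.1 ± 0.330 to 14.4 ± 1.61 CPM. The lower calls were lost when sham replicate 3 or VSG replicate 6 was left out, and the call of Dgkh was lost when any sham library or VSG replicate 6 was left out.

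Packaging and export of triglyceride had 11 of 12 genes tested, 6 lower and none higher at an adjusted or an unadjusted edgeR p under 0.05, with a median of -0.44. Ces1d, a carboxylesterase of lipoprotein assembly, had 389, 1496 and 979 CPM in sham and 34.2, 208 and 65.5 CPM in VSG libraries (log2 fold change -3.22, SE 0.792, edgeR adjusted p = 0.0413). Fitm1, a protein that partitions triglyceride into droplets, had 15.4, 34.9 and 30.0 CPM in sham and 2.08, 4.53 and 3.63 CPM in VSG libraries (-2.97, SE 0.395, edgeR adjusted p = 0.0103). Ces1g, another carboxylesterase, was lower by -2.24 (SE 0.527, edgeR adjusted p = 0.0366). Ces1d and Ces1g belong to a cluster of similar genes whose reads may be shared. Fitm2, Sar1b and Bscl2 were also called lower. Mttp, which loads triglyceride onto apolipoprotein B, had a log2 fold change of -0.41 (SE 0.201, edgeR adjusted p = 0.203) with overlapping groups. Leaving out sham replicate 3 or VSG replicate 6 gave 0 called genes of the list, leaving out sham replicate 2 gave 1, and leaving out VSG replicate 4 gave 2.

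Among 13 genes of the lipin phosphatase complex and the transcription factors of the pathway, 3 were lower and 1 higher, with a median of -0.07. Pparg, the nuclear receptor of fat storage, had 30.8, 28.1 and 28.3 CPM in sham and 13.8, 13.2 and 10.3 CPM in VSG libraries (log2 fold change -1.23, SE 0.134, edgeR adjusted p = 0.00692). Srebf1, a driver of lipid synthesis genes, was lower by -0.78 (SE 0.120, edgeR adjusted p = 0.0142), and Ppargc1a, a coactivator to which Lpin1 binds, by -0.79 (SE 0.186, edgeR adjusted p = 0.0371). Xbp1, a factor of the unfolded protein response, was higher by 1.66 (SE 0.183, edgeR adjusted p = 0.00698), from 149 ± 8.25 to 470 ± 105 CPM. Ctdnep1 and Cnep1r1, the phosphatase that activates lipins and its partner, had log2 fold changes of 0.04 (SE 0.103) and -0.07 (SE 0.0995) and were not called. The list had 1 lower call when sham replicate 3 or VSG replicate 6 was omitted.

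**Figure D5:**
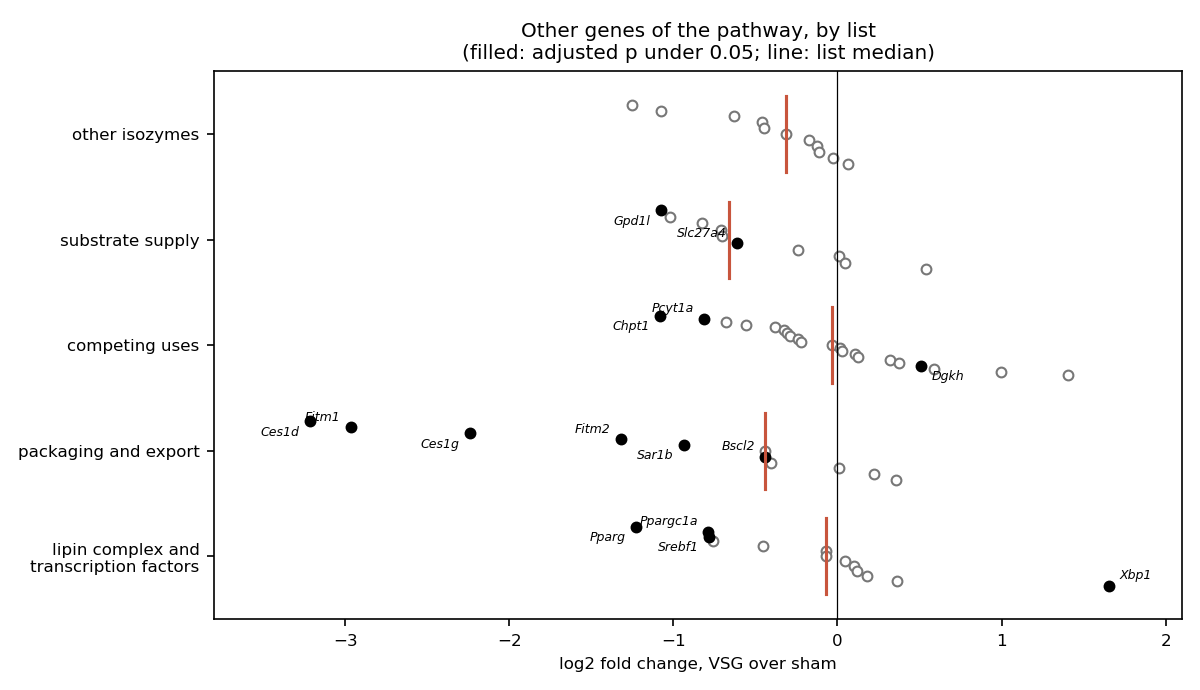
Log2 fold change (VSG over sham) of the 66 tested genes in 5 lists around triglyceride assembly. Each point is 1 gene, filled and named where the edgeR adjusted p was under 0.05, open where it was not, and red lines are list medians. The 6 called genes of packaging and export lie between -3.22 and -0.44, and Xbp1 at 1.66 is the highest point.

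The 5 genes whose log2 CPM was most like that of Mogat1 over the 6 libraries were Txndc17, Gpd2, Vps36, Pcyox1 and Mrps18a, with Pearson r of 0.996 to 0.999 among 9965 genes of at least 5 CPM on average. The points share the difference between the groups, and 418 genes reached an r above 0.95. After subtraction of each group's mean, r was 0.875 to 0.981, over libraries of which the VSG ones held 2 to 5 Mogat1 counts. Gpd2, the mitochondrial glycerol-3-phosphate dehydrogenase, had 89.2 ± 7.87 CPM in sham and 33.7 ± 0.515 CPM in VSG libraries.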

How the data were processed

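Strand-specific RNA-seq libraries were made from poly(A) RNA of mouse liver (3 sham, 3 VSG, grouped by sample titles). The deposited values were raw counts per gene. Per the submitters' processing notes the authors used STAR 2.6.0 and featureCounts 2.0.3 with mm10, and their methods tested genes with DESeq2. The annotation release, strand option and handling of reads with several matches are not given in the sources used here. Gene symbols came from GENCODE M21 (55144 of 55385 identifiers matched, 241 not). The table's exon lengths entered FPKM only.

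The test was edgeR 4.0.16 in R 4.3.3, with TMM scaling and with group alone in glmQLFit and glmQLFTest. Genes passed filterByExpr (minimum count 10 and total 15), and p-values were adjusted by Benjamini-Hochberg over 14454 genes. Each SE was derived from that test, as the absolute log2 fold change divided by the square root of its F statistic. The edgeR, DESeq2 and limma-voom fits were tried on counts simulated with known changes, and the other steps were not. Total counts were 22804397 to 24191778, and TMM factors 0.897 to 1.15. Floors (3 counts) and intervals cover counting error only. The labels name each library as liver of a male mouse. The p-values test the difference between the groups against the spread between the libraries within them. Alternatives were DESeq2 1.42.0, limma 3.58.1 (voom, or log2(FPKM + 1)), other filters, scaling and prior count, and leaving out each library.

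The members and lists were chosen with earlier results of these data known. Named were all members, up to 3 called genes per list and direction with the greatest fold change, Agpat1, Gpat4, Gpd1, Mttp, Pparg and Srebf1, and the 5 genes most like Mogat1. Fitm2, Sar1b, Bscl2, Gpat2, Gpat3, Awat2, Ctdnep1, Cnep1r1 and the marker genes were named after their values were seen. With 3 libraries against 3 an exact permutation test cannot go below p = 0.1, and none was used.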

Additional observations from a re-analysis of the deposited data

How the results depend on the processing

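The counts of calls moved with the tool, filter and scaling, while RLE size factors left the counts of members and of each list as they were. DESeq2 called 6 members lower, and 1772 of all genes lower (12.3%) and 1516 higher, against 1137 and 981 with edgeR. Of the lists, it called 5 genes of substrate supply, 5 of competing uses and 4 other isozymes lower, and 2 of competing uses higher. Scaling by total counts moved the median of all genes to -0.11, and called 1512 genes lower (10.5%) and 486 higher, 5 members lower (Mogat1, Gpam, Agpat3, Lpin1, Lpin2), 5 of substrate supply, 4 of competing uses and 3 other isozymes lower, and 0 of competing uses higher. Without the filter, where 1293 of 27530 genes (4.7%) were lower, 5 members (with Lpin1), 5 of substrate supply, 5 of packaging and export, 3 of competing uses and 2 other isozymes were lower and 0 of competing uses higher. Limma on log2(FPKM + 1) gave 2 other isozymes and 4 of packaging and export lower and 0 of competing uses higher. Limma-voom gave 1 other isozyme and 4 of packaging and export, and a minimum of 10 counts in every library gave 1 other isozyme and 3 members (Mogat1 was not tested).

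With each library left out in turn, all genes ran from 111 to 1422 lower and from 48 to 1310 higher, the lowest of both without sham replicate 3. The members called lower ran from 1 to 4, substrate supply from 0 to 5, competing uses from 0 to 2 lower and 0 to 1 higher, other isozymes from 0 to 2, packaging and export from 0 to 5, and the lipin complex and transcription factors from 1 to 3 lower. The median of the members ran from -0.72 to -0.63. No member was called higher in any fit. In shares computed from CPM without length, Agpat3 led its step in place of Agpat2, at 64.0% in sham and 55.4% in VSG libraries. No paired analysis was possible because the groups share no replicate number. At 3 libraries a group, members with an SE above 0.3, such as Dgat2 and Mogat2, allow no statement on small differences.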
